A study of Mus musculus with 3 samples.

Results

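A set of 6 genes of fatty acid uptake in capillaries was followed across the cell classes of mouse pancreas: Cd36, Fabp4, Fabp5, Gpihbp1, Lpl and Pparg. The members were taken by symbol, and they are 6 of the 55450 features in the deposited matrices. RNA of dissociated pancreas was measured in single cells with the 10x Chromium 3-prime kit, version 3, in 3 libraries. The series examined how exercise acts on the pancreas in male mice of the db/db strain, a leptin receptor mutant that overeats and turns diabetic. One library is labelled none and came from sedentary mice, one is labelled diabetic and came from sedentary mice, and one is labelled diabetic-Exercise. The treadmill training began at 6 weeks of age. For the library labelled none, the labels state neither genotype nor age, and for no library do they state how many animals were pooled. Each group was 1 library, so every ratio below compares libraries, carries no p-value and has no replicate check. All intervals are 95% intervals that cover counting error only.

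Triglyceride in circulating lipoproteins is split by lipoprotein lipase (Lpl), an enzyme that parenchymal and stromal cells secrete. Gpihbp1, a protein anchored in the endothelial membrane, carries the enzyme to the capillary lumen. The freed fatty acids are taken up by Cd36, a membrane receptor, and bound in the cell by the carriers Fabp4 and Fabp5. Pparg is a nuclear receptor that binds fatty acids and drives transcription of lipid uptake genes, Cd36 and Fabp4 among them.

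Gene positions were taken from the GENCODE M21 annotation of GRCm38, which held all 55450 identifiers. Cd36 (ENSMUSG00000002944) lies on the minus strand of chromosome 5, from 17781690 to 17888801. Fabp4 (ENSMUSG00000062515, chromosome 3, 10204088 to 10208576, minus strand) and Fabp5 (ENSMUSG00000027533, chromosome 3, 10012548 to 10016607, plus strand) lie 187481 bases apart. Gpihbp1 (ENSMUSG00000022579) lies on chromosome 15 from 75596628 to 75599481 and Lpl (ENSMUSG00000015568) on chromosome 8 from 68880491 to 68907448, both on the plus strand. Pparg (ENSMUSG00000000440) spans chromosome 6 from 115360951 to 115490399 on the plus strand and overlaps the antisense gene Gm44079, which had 0 UMIs (unique molecular identifiers, 1 per captured RNA molecule). The near copy Fabp5l2 had 1 UMI in all kept cells.

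RefSeq promoter windows were at hand for 2 of the 6 members, Cd36 and Pparg. The Cd36 window is shown because Cd36 had the largest difference between libraries, a choice made after its values were seen. It covers the 250 bases before a RefSeq start inside the gene's span, on the minus strand of GRCm38.p6 at chr5:17835897-17836146, and capitals mark GGGCGG, the core of a GC box.
Cd36 promoter: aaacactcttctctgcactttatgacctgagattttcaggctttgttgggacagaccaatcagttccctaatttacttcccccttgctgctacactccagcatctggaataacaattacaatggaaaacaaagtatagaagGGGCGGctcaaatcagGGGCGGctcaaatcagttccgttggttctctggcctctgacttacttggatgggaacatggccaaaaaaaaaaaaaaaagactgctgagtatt
The window held GGGCGG 2 times, inside an 18-base stretch, aggggcggctcaaatcag, that starts at positions 140 and 156 of the window. GGGCGG, read on both strands, was found in 32.7% of 32851 windows of the same length. The PPAR response element (a direct repeat of the nuclear receptor half-site with 1 base between), also read on both strands, was found in 11 of those windows (0.0335%). It had no match in the Cd36 window or in the 3 Pparg windows, which says only that these letters are not there. A 3-prime library does not show which start site was used.

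The libraries held 9958 barcodes (none), 12743 (diabetic sedentary) and 18433 (exercise), of which 8711, 11019 and 15069 were kept. The median depth was 3951.5, 4640 and 1887 UMIs per barcode, and the exercise library also had the highest median mitochondrial share, 6.995% against 0.708% and 2.205%. Between 32 and 61 barcodes were shared by each pair of libraries. Cells were classed by markers without the 6 members, and the endothelial-like class held 122, 546 and 378 cells. All 18 endothelial markers were detected in each library, among them Pecam1 and Cdh5. Digestive enzyme RNA was present throughout: the 21 acinar markers made up 46.91% of the UMIs of endothelial-like cells in none, 33.54% in diabetic sedentary and 35.1% in exercise.

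Of the 6 members, 5 had their highest mean level in endothelial-like cells, and Lpl did not. Levels are given as CPM, the UMIs of the gene scaled to the UMI total of the class and, with TMM factors, between libraries. Gpihbp1 stood at 1217, 1287 and 633.8 CPM in endothelial-like cells of none, diabetic sedentary and exercise, and its mean was at most 11.87 CPM in any other class. Between 89.17% and 95.82% of its UMIs in kept cells lay in endothelial-like cells. Fabp4 was also highest there in every library, at 5047, 9027 and 5400 CPM. Cd36 was shared by endothelial-like cells (139.3, 856.5 and 560.0 CPM) and macrophage-like cells (244.4, 300.1 and 409.5 CPM), and the ranges of these classes overlapped. In none, macrophage-like cells held 73.2% of the Cd36 UMIs of kept cells and endothelial-like cells 12.89%. In diabetic sedentary the shares were 15.21% and 74.51%.

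Fabp5 was spread more widely, with 247.9, 360.4 and 202.5 CPM in endothelial-like cells and 126.5, 101.9 and 122.3 CPM in macrophage-like cells, without overlap between the classes. Pparg was at 30.64, 28.34 and 14.76 CPM in endothelial-like cells, on 11, 53 and 14 UMIs. Its level in macrophage-like cells was between 3.365 and 6.424 CPM. Lpl was highest in fibroblast-like cells, at 1353, 1380 and 688.3 CPM, and macrophage-like cells came next at 74.87, 204.6 and 461.1 CPM.

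**Figure D1:**
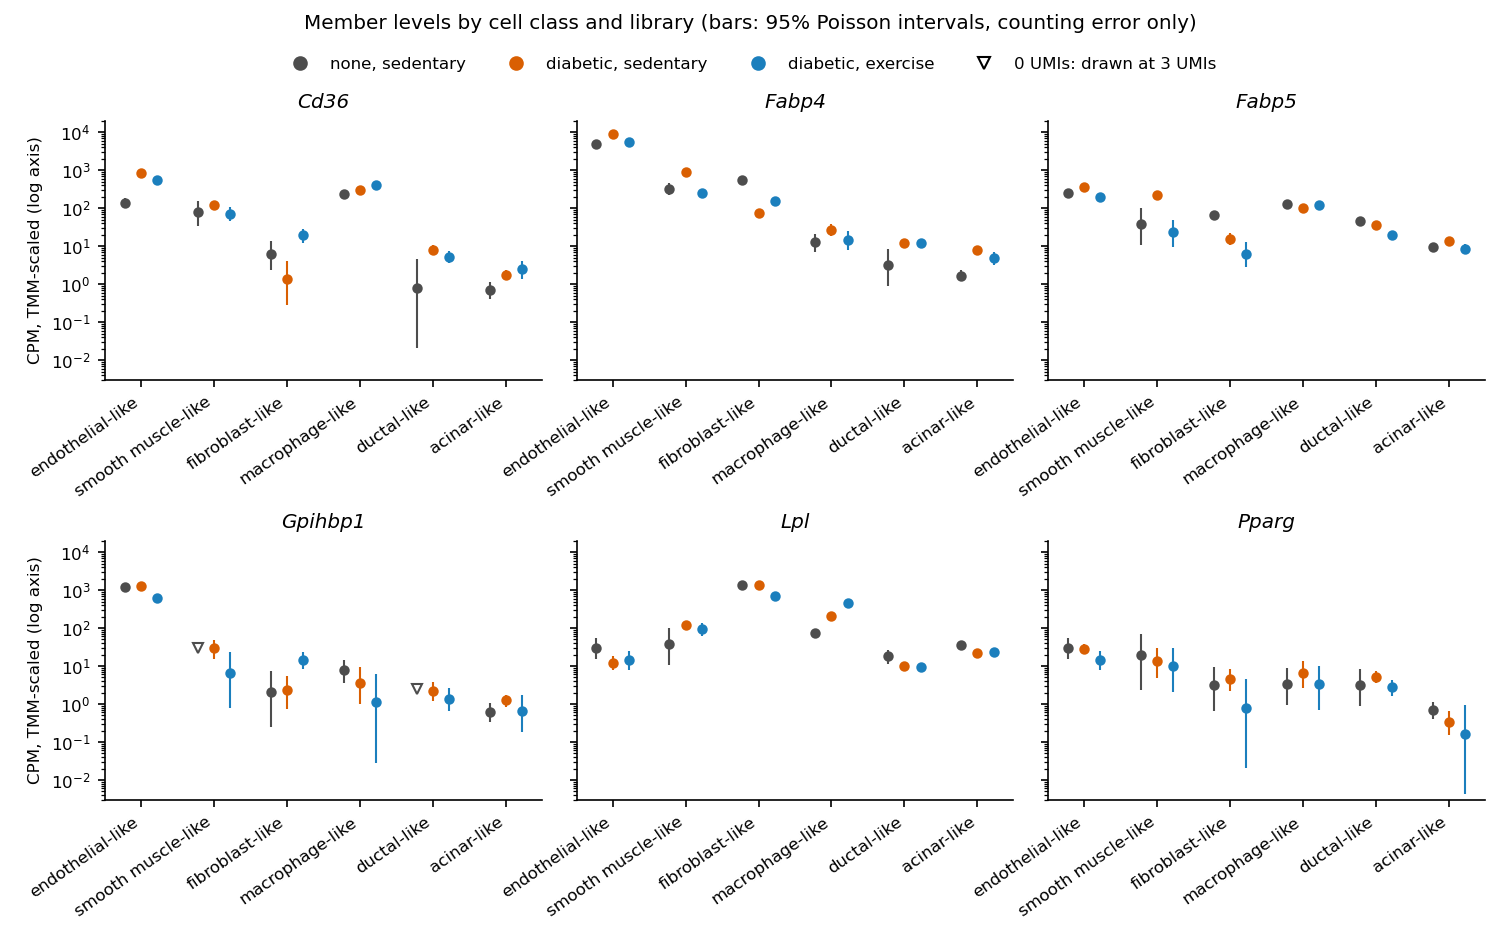
Levels of the 6 members in 6 cell classes (x axis), as TMM-scaled CPM on a log axis, with 1 point per library and 95% Poisson intervals for counting error. Open triangles stand for 0 UMIs and are drawn at 3 UMIs. Gpihbp1 is above 600 CPM in endothelial-like cells and under 30 CPM in every other class shown, and Lpl is highest in fibroblast-like cells.

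In endothelial-like cells Lpl was not above the level of the surrounding acinar RNA. Its 11, 23 and 14 UMIs gave 30.64, 12.3 and 14.76 CPM, beside 35.12, 22.27 and 23.12 CPM in acinar-like cells of the same libraries. After thinning every cell to 1000 UMIs, 2.59%, 0.78% and 0.63% of endothelial-like cells held an Lpl UMI, against 6.41%, 1.47% and 2.88% of acinar-like cells. Subtracting acinar RNA left 1.26, 6.73 and 0.0505 of the Lpl UMIs. The Lpl values in these cells were therefore read as background, and the enzyme's RNA was followed in the other classes below.

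Of the members, 2 were at least 1.5 times higher in diabetic sedentary than in none in endothelial-like cells (24.3% of 7285 genes were), and 0 of the 5 members other than Lpl were at least 1.5 times lower (12.6% of genes). Lpl, read as background, had a ratio of 0.401. Cd36 stood apart by its size, at 50 UMIs and 139.3 CPM in none and 1602 UMIs and 856.5 CPM in diabetic sedentary. The ratio was 6.15 (4.64 to 8.32), between 5.15 and 9.83 over the other ways of processing. Fabp4 went from 5047 to 9027 CPM, a ratio of 1.79 (1.70 to 1.88). Fabp5 went from 247.9 to 360.4 CPM, a ratio of 1.45 (1.16 to 1.83). Over the other ways of processing it was between 1.13 and 1.88, and it reached 1.5 under 3 of 15. Gpihbp1, at 1217 and 1287 CPM, differed by less than counting error, with a ratio of 1.06 (0.955 to 1.17). That ratio also moved with the processing, from 0.883 with acinar RNA subtracted to 1.37 over plain UMI totals, and kept its direction under 13 of 15 alternatives. Pparg had a ratio of 0.925, and its interval from 0.478 to 1.96 leaves room for large differences either way. The median log2 ratio was 0.53 over the 5 members without Lpl (0.31 with it) and 0.05 over all genes. With acinar RNA subtracted, Fabp4 was at 1.49, just under 1.5 times.

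In the exercise library 5 members were at least 1.5 times lower than in diabetic sedentary, where 17.5% of 8152 genes were, and 0 were as much higher (11.8% of genes). Gpihbp1 went from 1287 to 633.8 CPM, a ratio of 0.492 (0.450 to 0.539). Fabp5 had a ratio of 0.562 (0.476 to 0.661) and Fabp4 of 0.598 (0.580 to 0.617). Cd36 went from 856.5 to 560.0 CPM, a ratio of 0.654 (0.592 to 0.722). Pparg, on 53 and 14 UMIs, had a ratio of 0.521 (0.267 to 0.953). The median log2 ratio was -0.79 over the members and -0.07 over all genes. Part of these calls changed with the processing. Cd36 was less than 1.5 times lower under 8 of 16 alternatives, among them plain UMI totals (0.673), acinar RNA subtracted (0.762) and a mitochondrial ceiling of 10% (0.723). Fabp4 was so under 3, one of them with acinar RNA subtracted (0.698). Fabp5 and Gpihbp1 were so under 2 each and Pparg under 1, and those alternatives keep to 1 kind of endothelial cell or to a fixed mix of kinds, described below. These comparisons share the diabetic sedentary library. Set directly beside none, the exercise library had 1 member at least 1.5 times higher (22.3% of genes), Cd36 at 4.02 times, and 2 of the 5 without Lpl at least 1.5 times lower (19.3% of genes), Gpihbp1 at 0.521 and Pparg at 0.482 (14 and 11 UMIs). Fabp4 was at 1.07 times.

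Markers of other cells that hold these genes were low. Of 10 adipocyte markers, 8 or 9 were at 0 UMIs in endothelial-like cells of each library, Adipoq, Plin1 and Retn among them, and nearly all the rest was Lipe. The 5 platelet markers had 1, 20 and 6 UMIs. The 12 macrophage markers summed to 58.49, 72.18 and 92.81 CPM, beside 13270 to 16880 CPM in macrophage-like cells. The 13 fibroblast markers summed to 47.35, 96.77 and 158.2 CPM, beside 29650 to 31940 CPM in fibroblast-like cells.

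The make-up of the endothelial-like class differed between libraries, and the members were not at 1 level across it. Sub-clustering without the members gave 9 sub-clusters. Sub-clusters 1, 2, 3 and 5 had at least 5 times more UMIs of capillary markers than of large-vessel markers, and they held 91 of 122 cells in none, 367 of 546 in diabetic sedentary and 123 of 378 in exercise. Sub-cluster 5 was mostly of the library none, with 67 of its 86 cells, and sub-clusters 1 and 2 were mostly of diabetic sedentary, with 151 of 193 and 128 of 182. Sub-clusters 3 and 5 had digestive genes such as Reg3a or Amy2a5 among their leading genes, with medians of 48.3% and 42.2% acinar marker UMIs. Sub-clusters 6 and 8 had large-vessel markers such as Vwf and Selp or Gja5 among their leading genes, and held 2, 19 and 73 cells. In sub-cluster 6 Glycam1 and Madcam1, which are not in the large-vessel marker list, came before Vwf. The name large-vessel stands here for that marker list only. Sub-cluster 4 was led by Gja4, a connexin of arterial endothelium, but had more capillary than large-vessel marker UMIs, and it held 10, 67 and 30 cells. Sub-cluster 7 was lymphatic, with 3, 14 and 6 cells. Sub-cluster 0 stayed unnamed, since its capillary markers (900 CPM) summed to less than 5 times its large-vessel markers (778 CPM). Its leading genes included Cckar, Gp2 and the digestive gene Amy2b, and no capillary, large-vessel or lymphatic marker. Its median cell had 1281 UMIs. Acinar markers supplied 58.2% of the UMIs in its median cell. Sub-cluster 0 held 16, 79 and 146 cells. Capillary-marker-rich cells thus made up 67.22% of the class in diabetic sedentary and 32.54% in exercise, large-vessel cells 3.48% and 19.31%, and the unnamed sub-cluster 14.47% and 38.62%.

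Cd36 was highest in the sub-cluster led by Gja4 in every library, at 938.2 CPM in none (26 UMIs), 2602 in diabetic sedentary and 2030 in exercise, here over the plain UMI total of the sub-cluster. The capillary-marker-rich sub-clusters together stood at 67.39, 850.8 and 889.9 CPM. Of the 50 Cd36 UMIs of endothelial-like cells in none, 26 lay in the 10 cells of the sub-cluster led by Gja4. Large-vessel sub-clusters had 308.6 CPM in the diabetic sedentary library and 106.9 in the exercise library. Capillary-marker-rich sub-clusters were 2.76 times (1.87 to 4.24) and 8.33 times (5.40 to 13.5) higher. These ratios rest on the sub-cluster led by Gja4 standing apart, a rule changed after the reversal below was seen. With it counted as large-vessel, as at first, they were 0.449 in diabetic sedentary, which turns the order, and 1.25 in exercise.

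Gpihbp1 was nearly undetected in sub-clusters 6 and 8, the large-vessel ones. Large-vessel sub-clusters had 0 Gpihbp1 UMIs in the 19 cells of diabetic sedentary and 1 UMI in the 73 cells of exercise. Capillary-marker-rich sub-clusters had 2084 UMIs (1679 CPM) and 447 UMIs (1353 CPM) in those libraries. Against a 0, the ratio in diabetic sedentary has a lower limit of 38.3, and in exercise the ratio was 278.5 (49.7 to 11030). With cells split one by one by their marker UMIs, the ratios were 13.9 (9.61 to 21.0) and 20.6 (12.9 to 35.1). With the sub-cluster led by Gja4 counted as large-vessel they were 1.73 (1.52 to 1.97) and 3.84 (3.10 to 4.79). Fabp4 was also lower in large-vessel sub-clusters, at 6041 CPM in diabetic sedentary and 1384 CPM in exercise. It was at 10490 and 9586 CPM in capillary-marker-rich sub-clusters. In diabetic sedentary the Fabp4 order, too, turns with the sub-cluster led by Gja4 counted as large-vessel (ratio 0.797 against 1.74), and in exercise its ratio goes from 6.92 to 1.73.

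**Figure D2:**
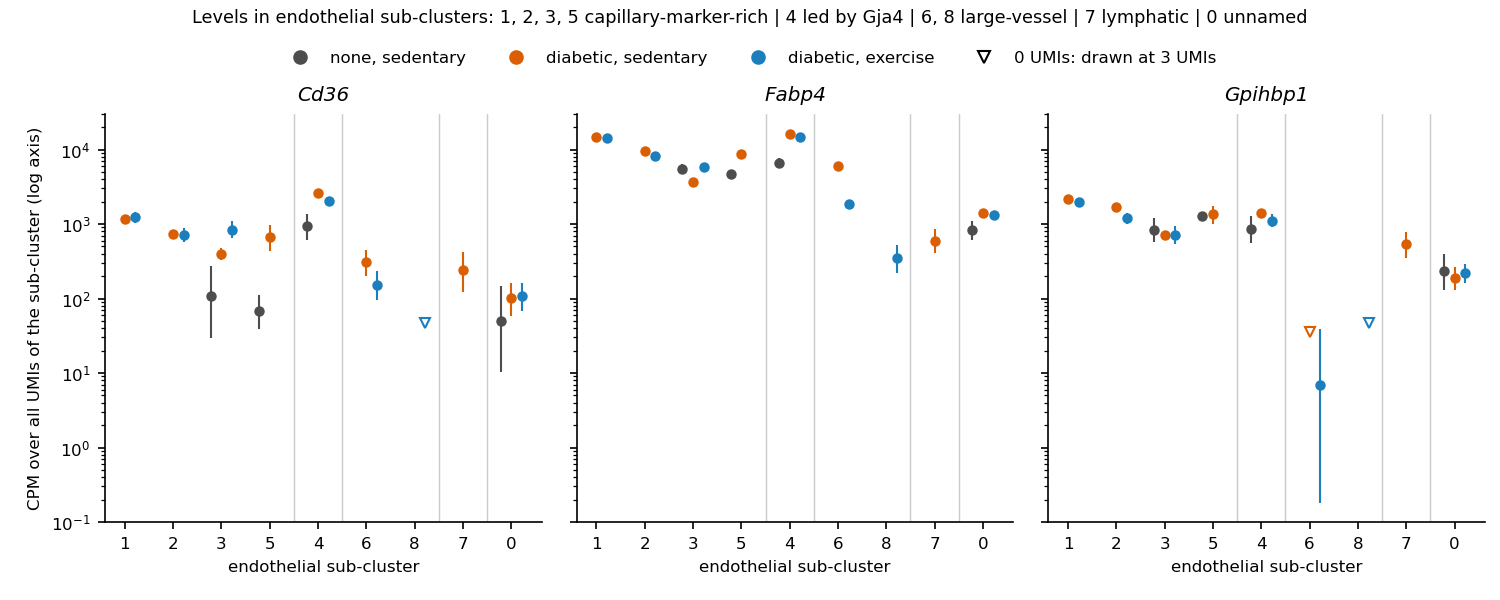
Cd36, Fabp4 and Gpihbp1 in the 9 endothelial sub-clusters (x axis), as CPM over all UMIs of the sub-cluster on a log axis, with 1 point per library of at least 10 cells and 95% Poisson intervals. Open triangles stand for 0 UMIs, drawn at 3 UMIs. Sub-cluster 4 has the highest Cd36 level in each library, and sub-clusters 6 and 8 have at most 1 Gpihbp1 UMI.

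Within capillary-marker-rich sub-clusters Cd36 was again higher in the diabetic libraries than in none, and the difference between the diabetic libraries was smaller than in the whole class. Cd36 stood at 82.53 CPM in none (21 UMIs), 811.3 in diabetic sedentary and 762.0 in exercise, now with scaled totals. The ratio of diabetic sedentary to none was 9.83 (6.40 to 15.95), and 6.17 (4.62 to 8.44) with cells split one by one. Different sub-clusters held most of these cells, 5 in none and 1 and 2 in diabetic sedentary. Within sub-cluster 5 alone Cd36 stood at 111.0 CPM in none (67 cells) and 617.7 in diabetic sedentary (12 cells), a ratio of 5.57 (2.88 to 11.1), and in sub-cluster 3 the ratio was 5.78 (2.20 to 21.6) on 4 UMIs in none. Over the 4 sub-clusters, 2 members were at least 1.5 times higher in diabetic sedentary than in none (25% of 6283 genes), and 0 of the 5 without Lpl were lower (12.7%). The ratio of exercise to diabetic sedentary was 0.939 (0.823 to 1.07). Fabp4 had ratios of 1.61 (1.53 to 1.70) for diabetic sedentary over none and 0.820 (0.789 to 0.853) for exercise over diabetic sedentary. The first was 1.09 (0.961 to 1.23) in sub-cluster 5 and 1.05 (0.903 to 1.23) in sub-cluster 3, where the libraries differed by less than counting error. Gpihbp1 had ratios of 1.02 (0.917 to 1.14) and 0.724 (0.652 to 0.802). Fabp5 was at 0.776 (0.640 to 0.937) in exercise over diabetic sedentary. Between the diabetic libraries 1 of 5 members with enough UMIs, Pparg (7 and 36 UMIs, ratio 0.656, 0.246 to 1.495), was at least 1.5 times lower, beside 21.6% of 6565 genes, and 0 were higher, beside 10.2%.

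In the sub-cluster led by Gja4, Cd36 and Fabp4 were also higher in diabetic sedentary than in none and lower in exercise than in diabetic sedentary. Cd36 was at 858.5, 2910 and 1983 CPM in none, diabetic sedentary and exercise, with a ratio of 3.39 (2.29 to 5.24) for diabetic sedentary over none and 0.681 (0.574 to 0.807) for exercise over diabetic sedentary. Fabp4 was at 6109, 18280 and 14290 CPM, with ratios of 2.99 (2.58 to 3.49) and 0.781 (0.733 to 0.833). Gpihbp1 was 1.98 times (1.30 to 3.15) higher in diabetic sedentary than in none here, unlike in the capillary-marker-rich sub-clusters, and the difference between the kinds was not tested. Fabp5 was at 1.06 (0.655 to 1.69) in exercise over diabetic sedentary. The 10 cells of none limit the first ratio of each gene. In the unnamed sub-cluster Cd36, Fabp4 and Gpihbp1 differed little between the diabetic libraries, with ratios of 1.05, 0.935 and 1.14. In large-vessel sub-clusters Cd36 (26 and 22 UMIs) was at 0.376 (0.203 to 0.690) and Fabp4 at 0.249 (0.214 to 0.288) in exercise over diabetic sedentary. All 16 cells of sub-cluster 8 came from exercise. In sub-cluster 6, with cells in both libraries, Cd36 was at 0.548 (0.296 to 1.005) and Fabp4 at 0.334 (0.287 to 0.389), and with cells split one by one they were at 0.379 (0.269 to 0.532) and 0.396 (0.354 to 0.443).

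Holding the mix of these kinds as in diabetic sedentary, an alternative added after the data were seen, moved the ratios of exercise to diabetic sedentary towards 1. Cd36 went from 0.673 to 0.946 and Fabp4 from 0.615 to 0.888, both over plain totals. Fabp5 went from 0.578 to 0.873, Gpihbp1 from 0.506 to 0.802 and Pparg from 0.536 to 0.737. At the fixed mix each of these genes was less than 1.5 times lower. The share over all genes was not computed at that mix, so the members cannot be set beside it. The exercise library also had shallower endothelial-like cells (a median of 1965 against 2496 UMIs) and the higher mitochondrial share given above. Their part in the mix was not tested.

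**Figure D3:**
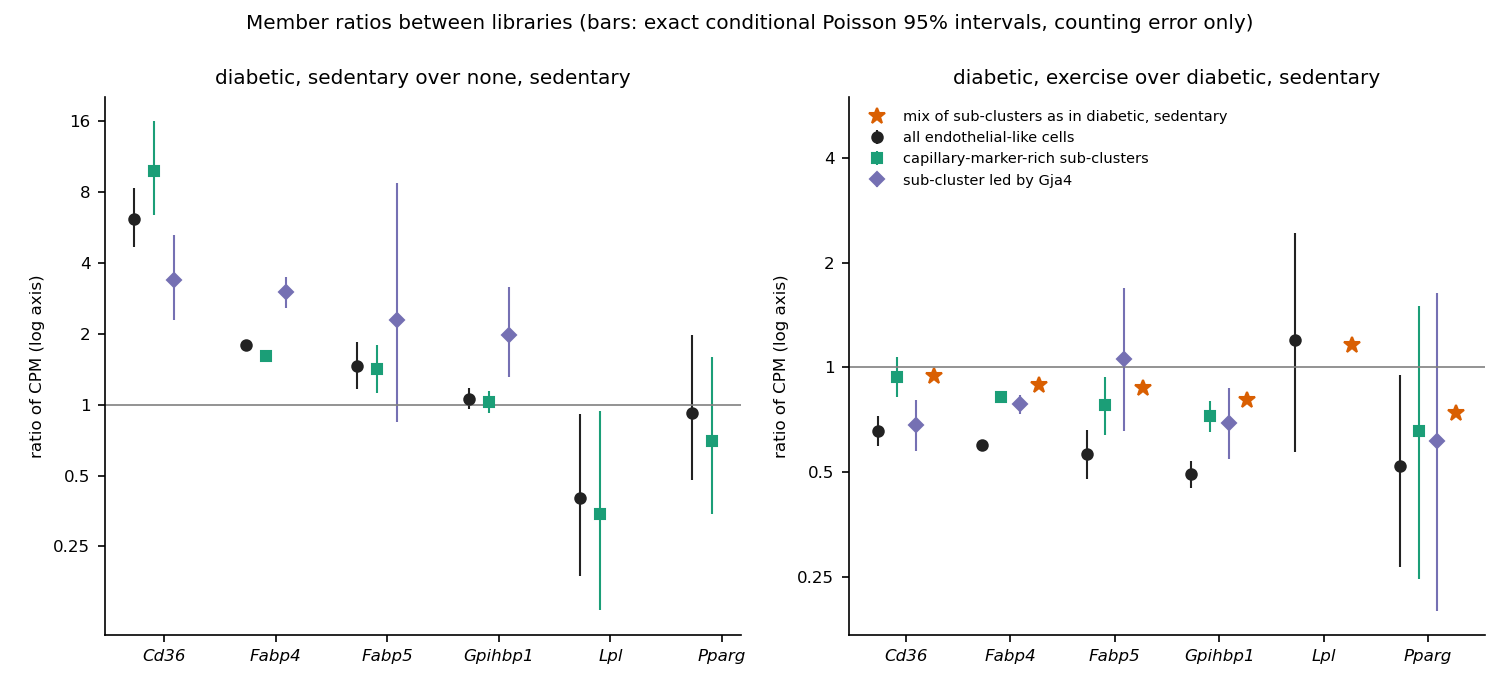
Ratios of CPM between libraries (y axis, log) for the members (x axis), left for diabetic sedentary over none and right for exercise over diabetic sedentary. Bars are exact conditional Poisson 95% intervals, stars show the ratio at a fixed mix of sub-clusters, and values on fewer than 20 UMIs are left out. Cd36 is far above 1 on the left in each set of cells, and on the right the ratios of Cd36, Fabp4, Fabp5 and Gpihbp1 in capillary-marker-rich sub-clusters lie between 0.724 and 0.939.

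The share of cells with a Cd36 UMI followed its level. With cells thinned to 1000 UMIs, 8.62% of 116 endothelial-like cells in none held one (4.21% to 15.28%, Clopper-Pearson), 49.32% of 513 in diabetic sedentary (44.91% to 53.73%) and 31.35% of 319 in exercise (26.29% to 36.75%). Thinning left out 6, 33 and 59 shallower cells. Without thinning the shares were 20.49%, 65.93% and 36.51%, at median depths of 2815.5, 2496 and 1965 UMIs. The background in thinned acinar-like cells was 0.24%, 0.16% and 0.39%, at median depths of 4808.5, 6616.5 and 2584 UMIs before thinning. Gpihbp1 was found in 58 of the 116 thinned cells in none, 62.38% in diabetic sedentary and 32.29% in exercise (72.95%, 75.09% and 42.33% without thinning). Fabp4 was found in 83.62%, 90.45% and 65.52% (88.52%, 94.14% and 69.05%). The shares of thinned acinar-like cells were at most 0.19% for Gpihbp1 and 0.74% for Fabp4.

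The share of cells with both Cd36 and Gpihbp1 was counted in the thinned cells, with no test between the kinds of cell. Over all endothelial-like cells of diabetic sedentary, 182 of 320 cells with Gpihbp1 also had Cd36 (56.88%), beside 71 of 193 cells without Gpihbp1 (36.79%). In exercise the shares were 48.54% of 103 and 23.15% of 216 cells. In none 6 of 58 cells with Gpihbp1 (10.34%) and 4 of 58 without (6.897%) had Cd36. In capillary-marker-rich sub-clusters the shares were 56.75% of 252 and 43.43% of 99 in diabetic sedentary, 35 of 71 and 22 of 44 in exercise, and 1 of 48 and 3 of 38 in none. In the sub-cluster led by Gja4 they were 38 of 47 and 17 of 19 in diabetic sedentary, 11 of 16 and 12 of 13 in exercise, and 4 of 5 and 1 of 4 in none, on few cells.

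**Figure D4:**
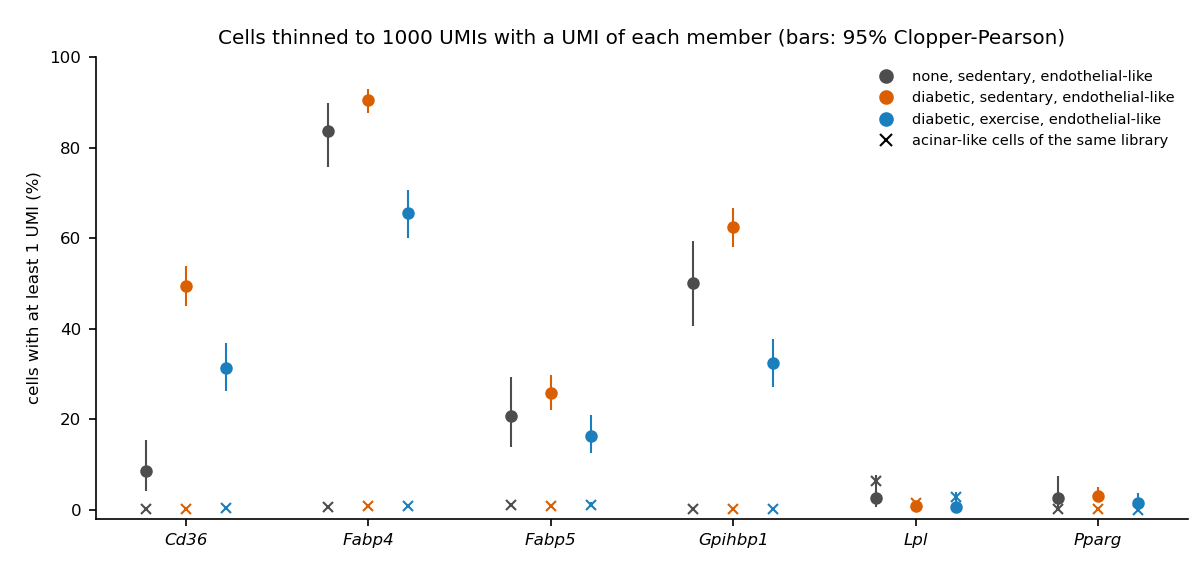
Share of cells (y axis, percent) with at least 1 UMI of each member (x axis) after thinning to 1000 UMIs, for endothelial-like cells (points) and acinar-like cells of the same library (crosses), with 95% Clopper-Pearson intervals. Cd36 goes from 8.62% in none to 49.32% in diabetic sedentary, and Lpl in endothelial-like cells lies below the acinar-like share in each library.

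Lpl, the enzyme, differed between the diabetic libraries in opposite directions in the 2 classes with its highest mean levels. By UMIs, fibroblast-like cells held 42.82%, 63.37% and 36.09% of it in kept cells, and macrophage-like cells 2.877%, 4.774% and 17.33%. Acinar-like cells, at low CPM, held 26.03%, 12.63% and 5.86%, and unnamed clusters rich in acinar RNA 26.49%, 15.89% and 35.88%. In fibroblast-like cells (297, 540 and 326 cells) Lpl stood at 1353 CPM in none and 1380 CPM in diabetic sedentary, a ratio of 1.02 (0.955 to 1.09). In exercise it stood at 688.3 CPM, 0.499 times the level of diabetic sedentary (0.462 to 0.539). After thinning, 45.24%, 54.56% and 40.82% of these cells held an Lpl UMI (68.69%, 73.52% and 52.45% before), far above the acinar-like shares. The 13 fibroblast markers were at 29650, 31940 and 30530 CPM in these cells. In macrophage-like cells (340, 243 and 243 cells) the Lpl level was 74.87 CPM in none, 204.6 in diabetic sedentary and 461.1 in exercise. The ratio was 2.73 (2.12 to 3.54) for diabetic sedentary over none and 2.25 (1.91 to 2.66) for exercise over diabetic sedentary. The sum of the 12 macrophage markers went the other way, from 16880 to 15400 and 13270 CPM, but not each marker did. Lyz2 and Adgre1 had more UMIs in diabetic sedentary than in none, from fewer cells, while Folr2 had far fewer. Whether the make-up of this class differed between libraries was not tested. One cell held 44 of the 223 Lpl UMIs in diabetic sedentary and another 81 of the 411 in exercise, and without the richest barcode of each library the ratios were 2.42 and 2.25. The share of thinned macrophage-like cells with Lpl was 4.46% (2.52% to 7.26%), 13.91% (9.72% to 19.07%) and 13.46% (9.14% to 18.86%), so the diabetic libraries differed in level and not, at this depth, in the share of cells. Before thinning the shares were 12.65%, 27.98% and 19.75%. Fibroblast marker RNA in macrophage-like cells was 134.3, 212.0 and 136.9 CPM, and its part in the Lpl values was not tested.

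Cd36 in macrophage-like cells was at 244.4, 300.1 and 409.5 CPM. The ratios were 1.23 (1.04 to 1.44) for diabetic sedentary over none and 1.37 (1.17 to 1.59) for exercise over diabetic sedentary. Exercise was thus higher here and lower in the endothelial-like class as a whole. Within that class the Cd36 ratio was 0.939 (0.823 to 1.07) in capillary-marker-rich sub-clusters, 0.681 (0.574 to 0.807) in the sub-cluster led by Gja4 and 0.946 at the fixed mix. Fabp5 in macrophage-like cells had ratios of 0.805 (0.624 to 1.04) for diabetic sedentary over none and 1.20 (0.913 to 1.58) for exercise over diabetic sedentary. One cell per library held 87 of its 147 Fabp5 UMIs in none, 65 of 111 in diabetic sedentary and 38 of 109 in exercise. Without those cells the ratio of exercise to diabetic sedentary was 1.89 (1.28 to 2.80).

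A single barcode set the Fabp4 level of fibroblast-like cells in none. It held 502 of the 516 Fabp4 UMIs of that class, 36 of 63 Fabp5 UMIs and 257 UMIs of adipocyte markers, with 23 UMIs of fibroblast markers. With it Fabp4 stood at 539.3, 76.44 and 160.0 CPM and the ratio of diabetic sedentary to none was 0.142. Without the richest barcode of each library the ratio was 4.81 (2.78 to 9.01), so its direction turned. The share of thinned fibroblast-like cells with Fabp4 was 1.02%, 7.54% and 4.49%, beside 0.53%, 0.74% and 0.72% of acinar-like cells. The richest fibroblast-like barcode in exercise, with 75 of 199 Fabp4 UMIs, held 39 UMIs of endothelial and 142 of fibroblast markers.

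The wider pathway was described with 5 lists, read in endothelial-like cells on genes with at least 20 UMIs in the 2 libraries and set beside the shares of all genes given above. The lists were read over the whole class only, not within sub-clusters or at the fixed mix. Capillary-marker-rich cells were 67.22% of the class in diabetic sedentary and 32.54% in exercise. The part of this mix in the list values was not tested. Of 21 partners and regulators of lipoprotein lipase 7 could be read, and 0 were 1.5 times higher and 1 lower both in diabetic sedentary over none (Sdc4, a syndecan, on 6 and 14 UMIs) and in exercise over diabetic sedentary (Scarb1, a lipoprotein receptor). Scarb1 stood at 220.0, 317.1 and 194.0 CPM. Apoe, an apolipoprotein, was at 345.4, 389.2 and 364.9 CPM and the proteoglycan Hspg2 at 259.0, 281.2 and 245.7 CPM. The intervals of both included 1 in every pair. Of 23 genes of fatty acid transport, binding and activation 7 could be read. In diabetic sedentary over none 2 were higher, Slc27a3 and Cavin1, and in exercise over diabetic sedentary 1, Got2. Cavin1, a coat protein of caveolae, stood at 211.7, 379.1 and 552.6 CPM and was highest in exercise, unlike the members. Its partner Cav1 was at 286.9, 351.8 and 373.3 CPM. Dbi, an acyl-CoA binding protein, was at 147.6, 139.0 and 160.3 CPM.

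PPAR receptors and their partners gave 2 higher and 1 lower of 10 in diabetic sedentary over none, and 0 higher and 2 lower of 11 in exercise over diabetic sedentary. Rxra, the partner receptor of Pparg, was at 50.13, 36.89 and 39.02 CPM, and the corepressor Ncor1 at 147.6, 163.1 and 122.3 CPM. Cebpb, a transcription factor of fat cell formation, was at 225.6, 116.6 and 99.13 CPM, with a ratio of 0.517 (0.399 to 0.675) for diabetic sedentary over none. Of PPAR target genes 4 of 14 were higher and 1 lower in diabetic sedentary over none, with a median log2 ratio of 0.23. In exercise over diabetic sedentary 1 of 15 was higher and 4 lower, with a median of -0.19. Plin2, which coats lipid droplets, was at 30.64, 53.47 and 31.64 CPM. Ucp2, a mitochondrial carrier, was at 158.8, 186.1 and 107.6 CPM, and Ech1, an enzyme of fatty acid oxidation, at 66.85, 86.61 and 64.33 CPM. For diabetic sedentary over none the intervals of Plin2 (0.935 to 3.61), Ucp2 (0.884 to 1.58) and Ech1 (0.841 to 2.08) all included 1. For exercise over diabetic sedentary that of Ech1 did (0.544 to 1.003), and those of Plin2 (0.380 to 0.898) and Ucp2 (0.459 to 0.723) did not. Aqp7, a glycerol channel, had 0, 50 and 31 UMIs and was among the genes leading the sub-cluster with the highest Cd36.

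Endothelial regulators of fatty acid transport gave 3 higher and 0 lower of 15 in diabetic sedentary over none, and 1 higher and 5 lower of 16 in exercise over diabetic sedentary, with a median log2 ratio of -0.46. Kdr and Aplnr, among the lower genes, are also in the capillary marker list used to name the sub-clusters. Flt1, a receptor of VEGF-B, was at 2069, 2254 and 1158 CPM, with a ratio of 0.514 (0.480 to 0.549) for exercise over diabetic sedentary. Kdr, the main VEGF-A receptor, had a ratio of 0.566 (0.523 to 0.611) and its coreceptor Nrp1 of 0.685 (0.610 to 0.768). Flt1 and Kdr are also among the 18 endothelial markers, which summed to 10020, 12010 and 8601 CPM in the 3 libraries. That sum holds both receptors, so it is no separate measure of them, and its markers did not move alike. Tie1, also a marker, had a ratio of 0.939 (0.767 to 1.145) for exercise over diabetic sedentary. Cldn5 had more UMIs in exercise than in diabetic sedentary, in a class with fewer cells. Whether the receptor ratios follow endothelial genes in general was not tested.

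The genes most like each member in level were found over 20 combinations of class and library by Pearson r of log2(CPM + 10). The combinations share libraries and depth, so r is a description. Only genes with at least 200 UMIs in the class where the member was highest were considered, which favours genes of that class. For Gpihbp1 the closest genes were Emcn (0.993), Kdr (0.992) and Ptprb (0.992). Emcn and Kdr are among the endothelial markers that named the class. For Fabp4 they were Tmem204 (0.972), Prex2 (0.965) and Eng (0.963). For Cd36 they were Plxnd1 (0.961), BC028528 (0.952) and Plekho1 (0.950). Fabp5 had its closest match in Cd93 (0.882), before St8sia4 (0.850) and Fam117b (0.849). Lpl was most like Cd302 (0.957), Plxdc2 (0.951) and Mmp19 (0.928), and Pparg most like Apold1 (0.932), Fez2 (0.931) and Cdc42ep3 (0.926). Among the members themselves Lpl stood apart, with r between -0.22 and 0.125 to the other 5.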

How the data were processed

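The authors deposited raw UMI counts per gene and barcode, not normalized, for each of the 3 libraries. They were made with Cell Ranger, version 6.1.2 per the file headers and version 7.1.0 per the submitters' processing notes. The build they aligned to is not stated in the labels or headers. The 6 members and all lists were chosen with earlier results of these data known.

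Barcodes were kept from 500 UMIs and 200 genes upward where mitochondrial genes gave no more than 20% of UMIs. Scrublet (scanpy 1.11.5) marked 0% as doublets, so the highest-scoring 5% per library were removed. The libraries were clustered together without the members: 2000 variable genes, 30 principal components, 15 neighbours, Leiden resolution 1 (leidenalg 0.10.2). Clusters were named from marker lists. These rules were set after the data were seen. Clusters with a median above 50% of acinar marker UMIs were kept apart. The rule for endothelial sub-clusters was changed 2 times, and the later change set the sub-cluster led by Gja4 apart from the large-vessel ones. It was made after the members' own capillary over large-vessel ratios were seen to differ in direction between sub-clusters and cells split one by one, so those ratios are not independent of it. Values under the earlier assignment are given as an alternative.

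UMIs were summed per class and library and scaled to CPM with TMM factors (edgeR 4.0.16, R 4.3.3). No test was possible with 1 library per group. Ratios carry exact conditional Poisson intervals, checked on simulated data. A gene was called at 1.5 times or more with at least 20 UMIs in the pair of libraries, and log2 medians use a prior count of 0.5. Classes with fewer than 50 cells in a library are given by level. Named genes were the members, the 3 genes of most like pattern to each, and the 3 genes with the highest CPM of each list. The endothelial markers set apart in other classes were chosen after their values were seen. Sdc4, Slc27a3, Got2 and Aqp7 were named after their values were seen. The design named RefSeq proteins, which were not used here.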

Additional observations from a re-analysis of the deposited data

Results flagged for a closer look

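The 9 results below were picked out because a ratio between the same libraries lay on opposite sides of 1 in endothelial-like cells and in another class, with neither interval holding 1. None of these differences was tested. The endothelial-like ratios are over the whole class. At the fixed mix of sub-clusters, those of Cd36, Fabp4 and Gpihbp1 for exercise over diabetic sedentary lay nearer 1. In fibroblast-like cells Cd36 was 13.8 times higher in exercise than in diabetic sedentary, on 24 and 3 UMIs, against 0.654 in endothelial-like cells. Gpihbp1 was 6.21 times higher there in exercise than in diabetic sedentary (18 and 5 UMIs) and 6.92 times higher than in none (18 and 2 UMIs), against 0.492 and 0.521. One exercise barcode held 7 of the 24 Cd36 UMIs and 5 of the 18 Gpihbp1 UMIs, with 27 UMIs of endothelial markers and 131 of fibroblast markers. The 18 endothelial markers summed to 366.9, 328.1 and 362.6 CPM in fibroblast-like cells of none, diabetic sedentary and exercise, but Eng, Ramp2 and Tek held 633 of the 704 UMIs in diabetic sedentary. The other 15 markers summed to 36.58, 33.09 and 105.3 CPM and so were highest in exercise, as Cd36 and Gpihbp1 were (Kdr had 7 UMIs in diabetic sedentary and 29 in exercise). Their part in these ratios was not tested. Fabp4 in fibroblast-like cells had ratios of 0.142 (diabetic sedentary over none), 2.09 (exercise over diabetic sedentary) and 0.297 (exercise over none), against 1.79, 0.598 and 1.07. Fabp5 there had a ratio of 0.241 for diabetic sedentary over none, against 1.45. Without the richest barcode of each library the Fabp4 ratios were 4.81, 1.42 and 6.81 and the Fabp5 ratio was 0.529. In macrophage-like cells Cd36 was 1.37 times higher in exercise than in diabetic sedentary, against 0.654 over the endothelial-like class and 0.946 at its fixed mix. Lpl was 2.73 times higher there in diabetic sedentary than in none, against 0.401 in endothelial-like cells, where it was at the level of acinar RNA.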

How the results depend on the processing

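Of the member ratios in endothelial-like cells, Cd36, Fabp4 and Fabp5 kept their direction under 15 of 15 alternatives in diabetic sedentary over none, and Cd36, Fabp4, Fabp5, Gpihbp1 and Pparg under 16 of 16 in exercise over diabetic sedentary. In that comparison Lpl kept it in 12. Calls of 1.5 times were less stable than directions, and Cd36 kept its own there in 8 of 16. The median log2 ratio of the members moved beyond counting error in these cases: in diabetic sedentary over none to 0.0642 with acinar RNA subtracted, and in exercise over diabetic sedentary to -0.33 in capillary-marker-rich sub-clusters, to -0.97 as a mean over cells and to -0.18 at the fixed mix of sub-clusters. Directions reversed in 4 cases. With the sub-cluster led by Gja4 counted as large-vessel, the ratio of capillary-marker-rich to large-vessel cells in diabetic sedentary was 0.449 for Cd36 (2.76 otherwise) and 0.797 for Fabp4 (1.74 otherwise). Split one by one by marker UMIs, cells gave 2.54 and 3.21. Without the richest barcode, Fabp4 in fibroblast-like cells had ratios of 4.81 and 6.81 over none. The alternatives chosen after seeing the data were these 2 settings, the fixed mix, and totals without acinar markers for sub-clusters. No paired analysis was possible because each group has 1 library. Depth limits Pparg and Lpl in endothelial-like cells most, with 11 UMIs each in none.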

Other observations

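Smooth muscle-like cells, led by mural genes such as Rgs5 and Notch3, had the next highest Fabp4 level after endothelial-like cells by the mean over libraries. It stood at 322.9, 896.6 and 248.2 CPM in none, diabetic sedentary and exercise (45, 144 and 86 cells). In none fibroblast-like cells were higher, at 539.3 CPM, with 502 of 516 UMIs in a single barcode. In smooth muscle-like cells Fabp5 was at 39.14, 227.5 and 23.16 CPM, Cd36 at 78.29, 120.4 and 72.80 CPM and Lpl at 39.14, 118.2 and 92.66 CPM. Gpihbp1 had 0, 13 and 2 UMIs there, 12 of the 13 in a barcode with 68 UMIs of endothelial markers. The 18 endothelial markers summed to 528.4, 678.0 and 383.9 CPM in these cells, mostly Esam and Eng. The other 16 had 2, 93 and 44 UMIs (19.57, 207.4 and 145.6 CPM), highest in diabetic sedentary as Fabp4 was, and their part in the Fabp4 values was not tested. With fewer than 50 cells in none, the class is given by level. Mesothelial-like cells had Fabp5 levels between 56.58 and 244.7 CPM, on 49 UMIs in all 3 libraries.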
